A study of Mus musculus with 7 samples.

Results

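Imprinted genes are transcribed mainly from the copy inherited from 1 parent, and a list of 36 such mouse genes was followed in epithelium-enriched and stromal fractions of the fetal mammary gland. Members were found by symbol among the 38579 genes of the deposited expression table. A row was present for 35 of the 36 symbols, each matching at most 1 row, and Kcnq1ot1 was not analysed here. Of the 35, 29 reached 1 FPKM (fragments per kilobase of transcript, scaled for sequencing depth) in at least 2 of the 7 libraries and were tested. The values are total levels of both parental copies, so they carry no information on which copy was used.

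RNA was sequenced from freshly sorted primary mammary cells of CD1 mouse embryos at E17.5, late in gestation, to examine a pair of sorting strategies. Each strategy gave a stromal fraction and an epithelial one, which the labels term fetal mammary stem cells (fMaSC, cells enriched for them). In the first strategy, 2 fMaSC libraries came from CD24+CD49f+ cells and 2 stroma libraries from CD24low cells, all depleted of lineage-marked cells. In the other, 2 fMaSC libraries came from cells positive for a Sox10-Venus reporter and for EpCAM, and 1 stroma library came from EpCAM-negative cells. The column names call these 3 libraries lineage-negative and the stromal one Sox10-negative. No treatment is named for any of the 7 libraries, and the labels call them biological replicates without saying how many embryos each pooled. The EpCAM-negative group has no replicate, so no SD exists for it and its spread was taken from the other groups.

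Imprinted genes lie largely in clusters, in which a DNA region methylated in only 1 of the parental germ lines sets which copy is active. Several of them control fetal growth: paternally expressed genes such as Igf2, Mest and Peg3 are on the whole linked to growth, and maternally expressed genes such as H19, Cdkn1c and Phlda2 to its restraint. Many are high in embryonic mesenchyme and fall after birth.

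The fractions carried the markers their labels call for, with a difference between the fMaSC sorts. The 8 epithelial markers (Epcam, Krt8, Krt18, Krt14, Krt5, Cdh1, Cldn6 and Cldn7) summed to 372 to 949 FPKM in the 4 fMaSC libraries and to 2.77 to 7.39 FPKM in the 3 stroma libraries. The 8 fibroblast markers (Col1a1, Col1a2, Col3a1, Pdgfra, Pdgfrb, Dpt, Lum and Dcn) summed to 6453 to 7592 FPKM in stroma. They summed to 2222 and 3439.7 FPKM in CD24+CD49f+ fMaSC, and to 47.0 and 76.6 FPKM in the Sox10+EpCAM+ fMaSC libraries. Adipocyte markers (6 genes) followed the same order, with 779 to 1284 FPKM in stroma, 244 and 567 FPKM in CD24+CD49f+ fMaSC, and 19.02 and 24.6 FPKM in the Sox10+EpCAM+ fMaSC libraries. Pericyte markers (4 genes) did so too, at 78.3 to 104 FPKM, 17.7 and 30.1 FPKM, and 0.755 and 1.45 FPKM. Erythroid genes stood at 4665 and 488 FPKM in CD24+CD49f+ fMaSC against 58.9 to 144 FPKM elsewhere. Marker sums of the remaining types were 32.1 to 180 FPKM for glia and neural crest (which include Sox10 itself), 3.53 to 24.4 FPKM for endothelium, 0.282 to 13.9 FPKM for skeletal muscle, 3.02 to 7.64 FPKM for leukocytes and 0.699 to 3.12 FPKM for neurons. An approximate estimate from the lowest values put 24.2 to 37 M fragments behind each library, and mitochondrial genes took 6.23% to 19% of the summed FPKM.

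In the Sox10 sort, most tested imprinted genes were lower in fMaSC than in stroma, while rises were about as frequent as among all genes. Against EpCAM-negative stroma, 17 of the 29 tested members fell and 4 rose in Sox10+EpCAM+ fMaSC (limma, adjusted p under 0.05 over 14418 genes). Over all genes tested, 13.6% were called lower and 12.5% higher. The median log2 fold of the members was −1.93, against 0.09 for all genes. In the CD24 sort, 3 members fell (Cdkn1c, Ndn and Slc38a4) and 2 rose (Nnat and Snrpn) in CD24+CD49f+ fMaSC against CD24low stroma, where 2.94% and 7.78% of all genes were called lower and higher. Their median log2 fold there was −0.50, against 0.13 for all genes. These 5 were the members called in both sorts, in the same direction in each. The 21 calls of the Sox10 sort became 11 without Sox10+EpCAM+ replicate 1. The 5 of the CD24 sort became 1 (Nnat) without any 1 of the Sox10+EpCAM+ or CD24low libraries or CD24+CD49f+ replicate 1, and 13 without CD24+CD49f+ replicate 2. The number of calls over all genes also changed when libraries were left out. With libraries scaled to equal sums (TPM), 0 fell and 1 rose in the CD24 sort, and with quantile scaling 6 fell and 1 rose. Among all genes, TPM scaling called 121 lower and 377 higher of 14625 there, and quantile scaling 772 and 855 of 14418. In all, 22 of the 29 were called in at least 1 of the 6 comparisons made, as were 33.1% of all genes. Fewer stromal cells in a fraction and less RNA of a gene per cell cannot be told apart in these bulk libraries. The fibroblast, adipocyte and pericyte markers moved with the imprinted genes that fell, and their part in the result was not tested.

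**Figure D1:**
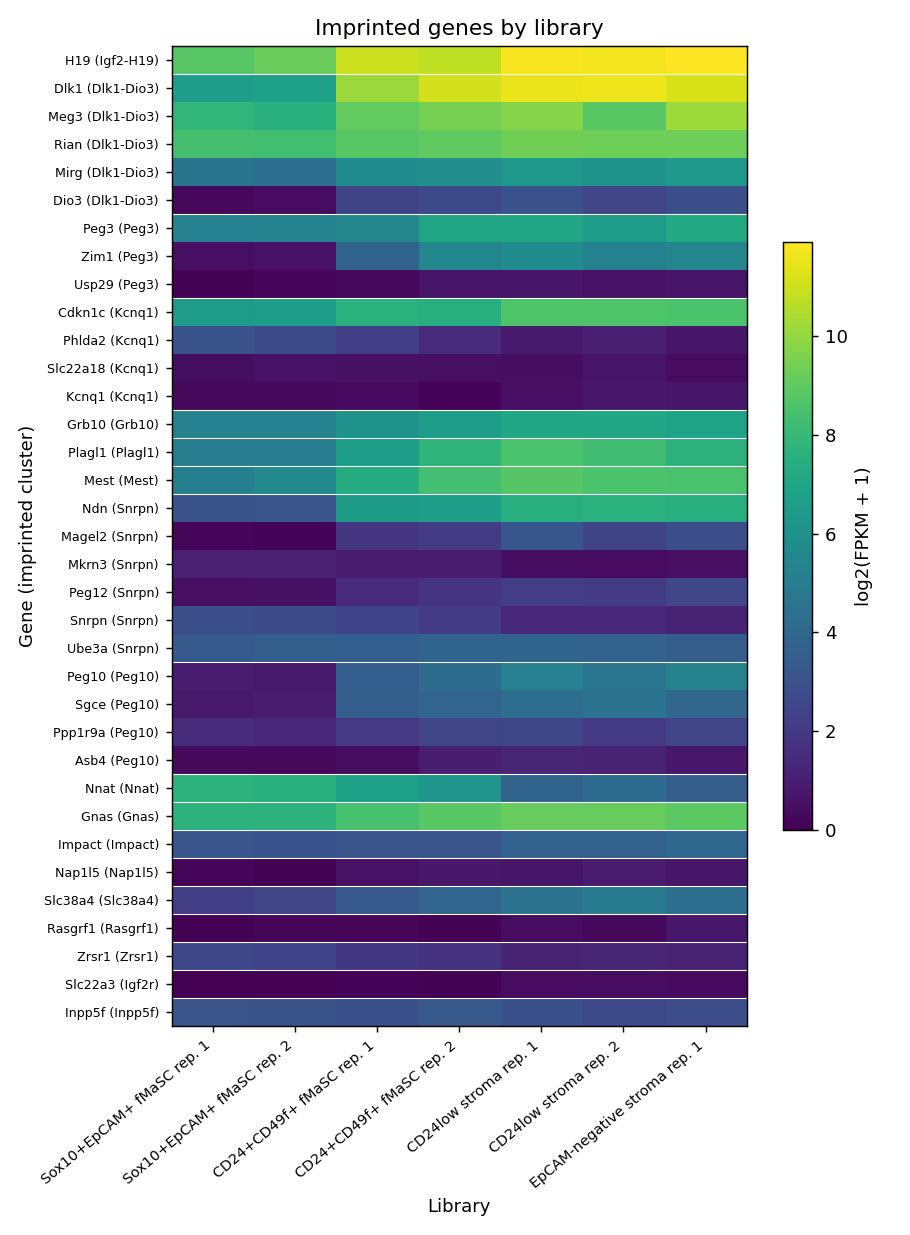
Level of each of the 35 imprinted genes with a row in each of the 7 libraries, as log2(FPKM + 1), ordered by imprinted cluster. The Sox10+EpCAM+ fMaSC libraries stand apart from the other 5 in most rows, while Nnat, Phlda2, Snrpn, Mkrn3 and Zrsr1 are higher there.

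Promoter sequences of the members that moved most in the Sox10 sort are shown for context: the 3 largest falls and 2 largest rises among members with an entry in the RefSeq promoter table (GRCm38.p6). Each runs 5′ to 3′ on the gene's strand over 300 bases around the start, most of them upstream, with every CpG, the dinucleotide that imprint methylation acts on, in capitals. Zim1 (chr7:6696383-6696682, minus strand) holds 20 CpGs and Dlk1 (chr12:109452573-109452872, plus strand) 9. Ndn (chr7:62348027-62348326, plus strand) holds 11, Nnat (chr2:157559828-157560127, plus strand) 17 and Phlda2 (chr7:143502475-143502774, minus strand) 26. The members that fell and those that rose overlap in CpG number.
Zim1: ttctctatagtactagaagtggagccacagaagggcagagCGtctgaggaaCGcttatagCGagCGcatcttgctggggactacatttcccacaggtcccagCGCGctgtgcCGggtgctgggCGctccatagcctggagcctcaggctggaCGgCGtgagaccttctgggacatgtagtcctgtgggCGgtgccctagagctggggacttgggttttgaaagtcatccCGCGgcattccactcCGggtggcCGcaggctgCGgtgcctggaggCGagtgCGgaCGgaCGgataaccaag
Dlk1: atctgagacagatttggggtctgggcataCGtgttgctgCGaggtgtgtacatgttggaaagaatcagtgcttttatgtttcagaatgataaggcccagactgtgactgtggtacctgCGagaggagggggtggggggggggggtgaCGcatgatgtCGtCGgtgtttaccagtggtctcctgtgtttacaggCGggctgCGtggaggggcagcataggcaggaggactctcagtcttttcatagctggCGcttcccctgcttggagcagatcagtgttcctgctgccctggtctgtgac
Ndn: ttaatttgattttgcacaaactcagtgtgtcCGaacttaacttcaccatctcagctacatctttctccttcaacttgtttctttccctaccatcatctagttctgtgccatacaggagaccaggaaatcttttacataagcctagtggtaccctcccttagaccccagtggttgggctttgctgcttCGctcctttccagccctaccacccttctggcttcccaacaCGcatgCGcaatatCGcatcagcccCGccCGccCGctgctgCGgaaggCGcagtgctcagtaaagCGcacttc
Nnat: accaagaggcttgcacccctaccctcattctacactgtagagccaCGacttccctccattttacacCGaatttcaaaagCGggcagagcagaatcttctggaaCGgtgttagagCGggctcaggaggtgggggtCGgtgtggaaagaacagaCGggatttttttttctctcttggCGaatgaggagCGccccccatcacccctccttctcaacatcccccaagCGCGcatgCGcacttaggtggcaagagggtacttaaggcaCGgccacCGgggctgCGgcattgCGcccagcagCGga
Phlda2: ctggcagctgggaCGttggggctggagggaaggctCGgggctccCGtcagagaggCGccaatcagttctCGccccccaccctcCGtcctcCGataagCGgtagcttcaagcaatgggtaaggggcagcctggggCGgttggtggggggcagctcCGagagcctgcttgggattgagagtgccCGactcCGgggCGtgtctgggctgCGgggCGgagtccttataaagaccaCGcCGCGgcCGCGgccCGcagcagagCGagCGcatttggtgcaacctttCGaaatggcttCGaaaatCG

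Promoter windows were found for 30 of the 36 symbols, 44 windows in all, and none was listed for H19, Cdkn1c, Kcnq1, Impact, Sgce or Peg10. Their median of 11.5 CpGs per 300 bases compares with 7 over all 32851 windows, and their median GC content of 55.2% with 52.7%. A set of 3 motifs was searched on both strands, none contained in another. TGCCGC, the core bound by ZFP57 when methylated, was in 9 of the 44 windows (20.5%) and in 11.6% of all windows. The 9 belong to Nnat, Mest, Nap1l5, Zim1, Snrpn, Plagl1, Grb10 and Meg3. The Mest windows starting at 30737800 and 30737803 on chromosome 6 overlap almost entirely and were counted separately. GGGGCCCC was in 4 windows (9.09% against 1.08%), those of Ppp1r9a, Peg3, Usp29 and Rasgrf1, of which Peg3 and Usp29 share 263 of their 300 bases. AANATGGCG, letters of a YY1 site, was in 2 windows (4.55% against 2.38%), those of Ube3a and Mkrn3.

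H19 and Dlk1 were the most abundant members, each at 2366 FPKM or more in every stroma library. H19, the maternally expressed noncoding RNA next to Igf2 (chr7:142575529-142578143, GRCm38/mm10, minus strand), stood at 449 and 586 FPKM in the Sox10+EpCAM+ fMaSC libraries, 2008 and 1723 FPKM in CD24+CD49f+ fMaSC, 3549 and 3323 FPKM in CD24low stroma and 3859 FPKM in EpCAM-negative stroma. All 4 fMaSC libraries lay below all 3 stroma libraries, and the Sox10+EpCAM+ pair lay below the rest. The log2 fold was −2.91 in the Sox10 sort (SE 0.63, limma adjusted p = 0.0195), a call that ended without Sox10+EpCAM+ replicate 1 (adjusted p = 0.205) or 2 (0.146). In the CD24 sort it was −0.88 (SE 0.51, limma adjusted p = 0.352). Igf2, the paternally expressed growth factor of the same cluster, was also lowest in the Sox10+EpCAM+ pair and highest in stroma, at 21.1 and 29.2 FPKM in the Sox10+EpCAM+ fMaSC libraries, 642 and 799.6 FPKM in CD24+CD49f+ fMaSC, 1646 and 1612 FPKM in CD24low stroma and 1483 FPKM in EpCAM-negative stroma. Its log2 fold in the Sox10 sort was −5.84 (SE 0.40, limma adjusted p = 0.00045).

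The Dlk1-Dio3 cluster on chromosome 12 holds paternally expressed coding genes and a run of maternally expressed noncoding RNAs. Of its 5 members, 4 fell in the Sox10 sort and none passed the threshold in the CD24 sort, where limma gave adjusted p of 0.253 to 0.952 and no member an unadjusted p under 0.05. Dlk1, a membrane protein that inhibits adipocyte differentiation, stood at 97.8 and 114 FPKM in the Sox10+EpCAM+ fMaSC libraries, 1121 and 2165 FPKM in CD24+CD49f+ fMaSC, 2994 and 3129 FPKM in CD24low stroma and 2366 FPKM in EpCAM-negative stroma. The 4 fMaSC libraries did not overlap the stroma, and the CD24+CD49f+ libraries lay between the others. Its log2 fold was −4.48 in the Sox10 sort (SE 0.59, limma adjusted p = 0.00344, and 0.0528 without Sox10+EpCAM+ replicate 1) and −0.97 in the CD24 sort (SE 0.48, limma adjusted p = 0.279). Dio3, the deiodinase that inactivates thyroid hormone, was at 0.184 and 0.310 FPKM in the Sox10+EpCAM+ fMaSC libraries, against 4.39 and 5.21 FPKM in CD24+CD49f+ fMaSC, 6.87 and 4.55 FPKM in CD24low stroma and 6.31 FPKM in EpCAM-negative stroma. Here the CD24+CD49f+ libraries lay within or just under the stromal range. Dio3 was under 1 FPKM in the Sox10+EpCAM+ pair and passed the filter only through the other 5 libraries. The log2 fold of Dio3 was −2.55 in the Sox10 sort (SE 0.27, limma adjusted p = 0.00159) and −0.19 in the CD24 sort (SE 0.22, limma adjusted p = 0.63).

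Of the 3 noncoding RNAs of that cluster, Meg3 and Mirg fell in the Sox10 sort and Rian did not pass, and differences between them were not tested. Meg3, the first RNA of the maternal run, stood at 230.3 and 188 FPKM in the Sox10+EpCAM+ fMaSC libraries, 525 and 713 FPKM in CD24+CD49f+ fMaSC, 873 and 463 FPKM in CD24low stroma and 1169 FPKM in EpCAM-negative stroma. Its stroma replicates therefore spanned the CD24+CD49f+ libraries, and only the Sox10+EpCAM+ pair lay apart. The log2 fold of Meg3 was −2.48 in the Sox10 sort (SE 0.54, limma adjusted p = 0.0195, and 0.111 or 0.139 without Sox10+EpCAM+ replicate 1 or 2) and −0.06 in the CD24 sort (SE 0.44, limma adjusted p = 0.952). Mirg, a host of many small RNAs, stood at 23.5 and 19.1 FPKM, 54.6 and 55.7 FPKM, 81.2 and 68.6 FPKM and 86.4 FPKM across the groups in that order, and fell by 1.98 on the log2 scale in the Sox10 sort (SE 0.25, limma adjusted p = 0.00288). Rian, which lies between them and hosts small nucleolar RNAs, stood at 342 and 311 FPKM, 458 and 521 FPKM, 643 and 623 FPKM and 629 FPKM. The fMaSC libraries were again all below stroma, but the log2 fold of Rian was −0.95 with a 95% interval of −1.90 to 0.01 (limma adjusted p = 0.127). Meg3, Rian and Mirg overlap small RNAs on the same strand, and 6.79% of the Meg3 exonic bases overlap an antisense gene, which a kit not described as strand-specific cannot separate.

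**Figure D2:**
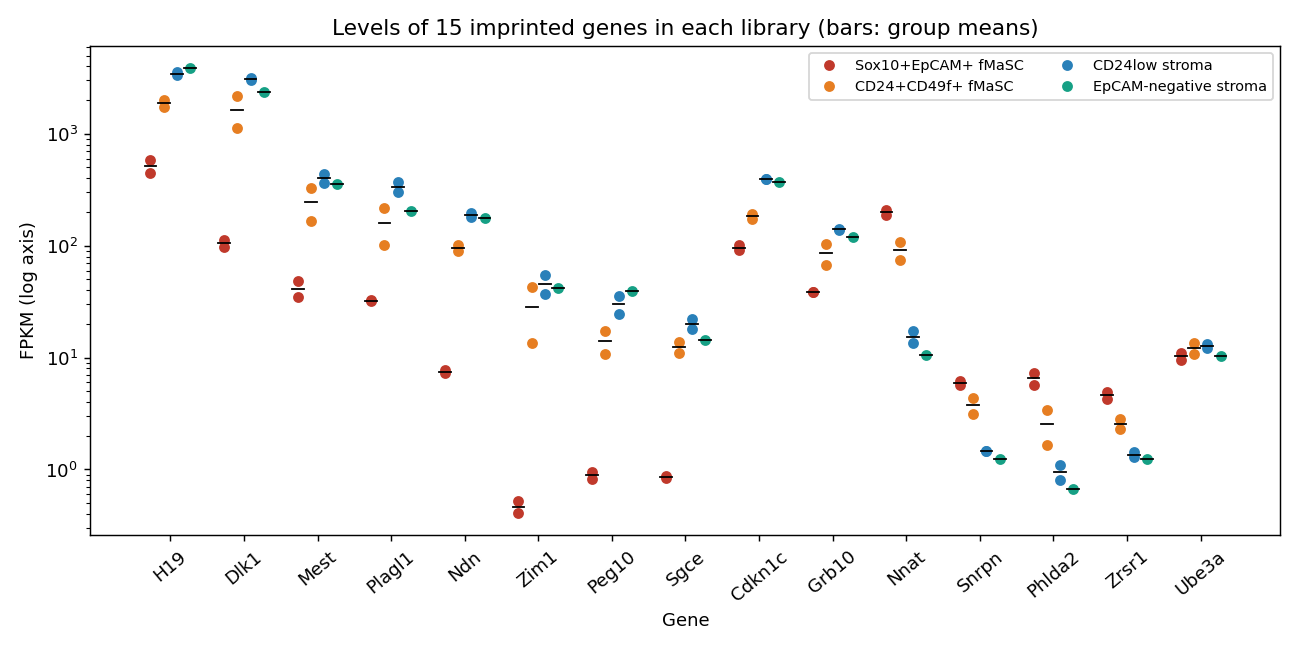
FPKM of 15 imprinted genes in each of the 7 libraries on a log axis, with points for libraries and bars for group means. Zim1, Peg10, Sgce and Dlk1 show the Sox10+EpCAM+ fMaSC points far below the CD24+CD49f+ points, Nnat, Snrpn, Phlda2 and Zrsr1 show the opposite order, and Ube3a is level at 9.52 to 13.5 FPKM.

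In the Peg3 cluster on proximal chromosome 7, the zinc finger gene Zim1 (maternally expressed) had the largest log2 fall of any member in the Sox10 sort. Zim1 stood at 0.410 and 0.518 FPKM in the Sox10+EpCAM+ fMaSC libraries, 13.4 and 43.0 FPKM in CD24+CD49f+ fMaSC, 54.5 and 36.8 FPKM in CD24low stroma and 41.8 FPKM in EpCAM-negative stroma. CD24+CD49f+ replicate 2 lay inside the stromal range and replicate 1 below it. The Sox10+EpCAM+ pair was under 1 FPKM, so Zim1 passed the filter only through the other 5 libraries. Its log2 fold was −4.87 in the Sox10 sort (SE 0.63, limma adjusted p = 0.00317) and −0.86 in the CD24 sort (SE 0.51, limma adjusted p = 0.367). Peg3, a paternally expressed zinc finger gene, stood at 37.4 and 39.2 FPKM in the Sox10+EpCAM+ fMaSC libraries, 44.8 and 132 FPKM in CD24+CD49f+ fMaSC, 141 and 92.2 FPKM in CD24low stroma and 148 FPKM in EpCAM-negative stroma. The CD24+CD49f+ replicates of Peg3 spanned most of the range between the other groups. Its log2 fold of −1.92 in the Sox10 sort did not pass (SE 0.63, limma adjusted p = 0.0714). Usp29, whose promoter window is largely shared with Peg3, gave 0.0410 and 0.112 FPKM in the Sox10+EpCAM+ pair, 0.239 and 0.628 FPKM in CD24+CD49f+ fMaSC, 0.638 and 0.475 FPKM in CD24low stroma and 0.602 FPKM in EpCAM-negative stroma, and was not tested. The locus listed for its row (chr7:6961160-6963769) covers only a short stretch near one end of the gene.

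Within the Kcnq1 cluster on distal chromosome 7, the 2 tested members moved in opposite directions. Both restrain growth: Cdkn1c encodes the cell cycle inhibitor a protein of the Cip/Kip family, and Phlda2 a regulator of placental growth. Cdkn1c stood at 90.6 and 102 FPKM in the Sox10+EpCAM+ fMaSC libraries, 194 and 174 FPKM in CD24+CD49f+ fMaSC, 399 and 395 FPKM in CD24low stroma and 367 FPKM in EpCAM-negative stroma. It fell by 1.93 on the log2 scale in the Sox10 sort (SE 0.30, limma adjusted p = 0.00647, and 0.0884 or 0.0678 without Sox10+EpCAM+ replicate 1 or 2). In the CD24 sort it fell by 1.11 (SE 0.25, limma adjusted p = 0.0424), and that call ended without any 1 of the 6 replicated libraries (adjusted p = 0.0533 to 0.19). Over both sorts the fall was 1.44 (SE 0.24, limma adjusted p = 0.00783) and was called under each alternative setting. Of these settings, the one without EpCAM-negative stroma repeats the CD24 sort comparison. An antisense gene, Gm44732, overlaps 30.7% of the exonic bases of Cdkn1c, so reads from it cannot be told apart.

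Phlda2 ran the other way, at 7.34 and 5.68 FPKM in the Sox10+EpCAM+ fMaSC libraries, 3.42 and 1.67 FPKM in CD24+CD49f+ fMaSC, 0.801 and 1.10 FPKM in CD24low stroma and 0.673 FPKM in EpCAM-negative stroma. All fMaSC libraries were above all stroma libraries. Phlda2 rose by 2.16 on the log2 scale in the Sox10 sort (SE 0.34, limma adjusted p = 0.00647), and its log2 fold in the CD24 sort was 0.82 (SE 0.28, limma adjusted p = 0.132). Slc22a18, a transporter gene placed between Cdkn1c and Phlda2, stood at 0.344 and 0.478 FPKM, 0.445 and 0.413 FPKM, 0.344 and 0.604 FPKM and 0.296 FPKM across the groups in that order. The potassium channel gene Kcnq1 stood at 0.187 and 0.203 FPKM, 0.260 and 0.0996 FPKM, 0.405 and 0.782 FPKM and 0.639 FPKM. The groups overlapped for Slc22a18, and for Kcnq1 the fMaSC libraries were below stroma. Neither was tested.

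The Snrpn cluster, the mouse counterpart of the Prader-Willi and Angelman region, also split. Of 6 members tested, 3 fell in the Sox10 sort (Ndn, Magel2 and Peg12), 1 rose (Snrpn), and Mkrn3 and Ube3a did not pass. Ndn, a MAGE-family gene that restrains proliferation, stood at 7.27 and 7.70 FPKM in the Sox10+EpCAM+ fMaSC libraries, 90.0 and 102 FPKM in CD24+CD49f+ fMaSC, 182 and 195 FPKM in CD24low stroma and 177 FPKM in EpCAM-negative stroma. The fMaSC libraries did not overlap stroma, with the Sox10+EpCAM+ mean at 4.23% of its stroma and the CD24+CD49f+ mean at 50.9%. The log2 fold of Ndn was −4.39 in the Sox10 sort (SE 0.23, limma adjusted p = 0.000276) and −0.97 in the CD24 sort (SE 0.19, limma adjusted p = 0.028), the latter ending without each of 5 libraries (adjusted p = 0.0508 to 0.15). Only without EpCAM-negative stroma or CD24+CD49f+ replicate 2 did it remain. Magel2, a partner of ubiquitin ligases, stood at 0.119 and 0.0747 FPKM, 2.64 and 3.17 FPKM, 8.003 and 4.46 FPKM and 6.25 FPKM across the groups in that order, a log2 fold of −2.72 in the Sox10 sort (SE 0.32, limma adjusted p = 0.00231). Peg12, of the Frat family, stood at 0.392 and 0.457 FPKM, 1.77 and 2.63 FPKM, 3.68 and 3.22 FPKM and 4.81 FPKM. Its log2 fold in the Sox10 sort was −2.03 (SE 0.23, limma adjusted p = 0.0021). Magel2 and Peg12 were under 1 FPKM in the Sox10+EpCAM+ pair, so both passed the filter only through the other 5 libraries.

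Mkrn3, a zinc finger gene that lies between Magel2 and Peg12 and is paternally expressed like them, did not follow its neighbours. It stood at 1.11 and 1.15 FPKM in the Sox10+EpCAM+ fMaSC libraries, 0.848 and 0.870 FPKM in CD24+CD49f+ fMaSC, 0.376 and 0.303 FPKM in CD24low stroma and 0.422 FPKM in EpCAM-negative stroma. Levels were low but the fMaSC libraries all lay above stroma. Only the Sox10+EpCAM+ pair reached 1 FPKM, so Mkrn3 passed the filter through that pair alone. Leaving out either of these 2 libraries therefore left Mkrn3 untested. The log2 fold was 0.58 in the Sox10 sort (SE 0.17, limma adjusted p = 0.0535), and 0.52 over both sorts (SE 0.13, limma adjusted p = 0.0275). The pooled call ended without CD24+CD49f+ replicate 1 or CD24low replicate 1 or 2, and under TPM (limma adjusted p = 0.275) or quantile scaling (0.294). It also ended without EpCAM-negative stroma (limma adjusted p = 0.0906), but that fit repeats the CD24 sort comparison.

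Snrpn, which encodes a spliceosomal protein, was higher in both fMaSC fractions. It stood at 6.21 and 5.68 FPKM in Sox10+EpCAM+ libraries and 4.34 and 3.15 FPKM in CD24+CD49f+ fMaSC, against 1.47 and 1.48 FPKM in CD24low stroma and 1.25 FPKM in EpCAM-negative stroma. It rose by 1.62 on the log2 scale in the Sox10 sort (SE 0.22, limma adjusted p = 0.00399) and by 0.93 in the CD24 sort (SE 0.18, limma adjusted p = 0.0285). Without any 1 of 5 libraries, all but EpCAM-negative stroma and CD24+CD49f+ replicate 2, the CD24 sort call ended (adjusted p = 0.0501 to 0.15), and with libraries scaled to equal sums (TPM) both calls ended (0.15 in the Sox10 sort and 0.493 in the CD24 sort). The identifier listed for its row belongs in GENCODE M21 to an overlapping gene model, Gm38393, of whose exonic bases 11.3% are shared with the gene annotated as Snrpn and 4.14% with Snurf, all on the same strand. How reads were split among them is uncertain. Ube3a, a ubiquitin ligase imprinted in neurons and biallelic elsewhere, stood at 9.52 and 11.1 FPKM in the Sox10+EpCAM+ libraries, 10.8 and 13.5 FPKM in CD24+CD49f+ fMaSC, 13.3 and 12.3 FPKM in CD24low stroma and 10.3 FPKM in EpCAM-negative stroma. Its log2 fold in the Sox10 sort was −0.0033 with a 95% interval of −0.55 to 0.54 (limma adjusted p = 0.994). The neuronal markers Tubb3, Elavl3, Elavl4, Snap25, Stmn2, Rbfox3 and Syt1 were at 1.23 FPKM or lower in each library, and Rbfox3 at 0.0485 FPKM or lower.

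Chromosome 6 carries the Peg10 cluster, in which the paternally expressed neighbours Peg10 and Sgce both fell in the Sox10 sort. Peg10, derived from a retrotransposon and needed in placenta, stood at 0.947 and 0.826 FPKM in the Sox10+EpCAM+ fMaSC libraries, 10.7 and 17.3 FPKM in CD24+CD49f+ fMaSC, 35.4 and 24.4 FPKM in CD24low stroma and 39.6 FPKM in EpCAM-negative stroma. Sgce, the epsilon-sarcoglycan gene that starts beside it on the other strand, stood at 0.841 and 0.882 FPKM, 11.0 and 13.8 FPKM, 18.2 and 22.0 FPKM and 14.3 FPKM in the same order. In both genes the fMaSC libraries lay below stroma. The Sox10+EpCAM+ pair was under 1 FPKM, so both genes passed the filter only through the other 5 libraries. Peg10 had a log2 fold of −4.43 in the Sox10 sort (SE 0.35, limma adjusted p = 0.000623) and −1.06 in the CD24 sort (SE 0.28, limma adjusted p = 0.0708). For Sgce these were −3.04 (SE 0.23, limma adjusted p = 0.000559) and −0.65 (SE 0.19, limma adjusted p = 0.0864). Ppp1r9a, which encodes the actin-binding protein neurabin, stood at 1.87 and 1.61 FPKM, 2.97 and 4.62 FPKM, 4.93 and 3.06 FPKM and 4.63 FPKM across the groups in that order. Asb4, of a ubiquitin ligase adaptor family, stood at 0.246 and 0.215 FPKM, 0.374 and 0.971 FPKM, 1.36 and 1.29 FPKM and 0.724 FPKM. For both, the Sox10+EpCAM+ libraries were the lowest, and neither passed in any comparison.

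Mest and Plagl1, each the only listed member of its cluster, both fell in the Sox10 sort. Mest, a paternally expressed hydrolase-like gene of mesoderm, stood at 34.6 and 48.0 FPKM in the Sox10+EpCAM+ fMaSC libraries, 167 and 329.6 FPKM in CD24+CD49f+ fMaSC, 433 and 367 FPKM in CD24low stroma and 359.5 FPKM in EpCAM-negative stroma. Plagl1, a zinc finger transcription factor linked to other imprinted genes, stood at 32.1 and 32.6 FPKM, 102 and 217 FPKM, 368 and 304 FPKM and 202 FPKM. For Mest all fMaSC libraries were below stroma, while for Plagl1 CD24+CD49f+ replicate 2 exceeded the EpCAM-negative library. Mest fell by 3.11 on the log2 scale in the Sox10 sort (SE 0.48, limma adjusted p = 0.00594, and 0.0531 without Sox10+EpCAM+ replicate 1). Plagl1 fell by 2.61 (SE 0.47, limma adjusted p = 0.0102, and 0.0687 or 0.0633 without Sox10+EpCAM+ replicate 1 or 2). An antisense partner, Copg2, shares 23.1% of the exonic bases of Mest and stayed at 8.03 to 9.89 FPKM in all 7 libraries.

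Grb10, an adaptor that dampens insulin and IGF receptor signalling, stood at 38.5 and 38.4 FPKM in the Sox10+EpCAM+ fMaSC libraries, 67.4 and 103 FPKM in CD24+CD49f+ fMaSC, 141 and 138 FPKM in CD24low stroma and 118 FPKM in EpCAM-negative stroma. Slc38a4, an amino acid transporter, stood at 3.61 and 4.67 FPKM, 8.62 and 13.7 FPKM, 22.4 and 28.0 FPKM and 19.04 FPKM. Impact, a regulator of translation under amino acid shortage, moved least of those that fell, at 7.73 and 7.11 FPKM, 7.73 and 7.78 FPKM, 11.9 and 11.9 FPKM and 14.9 FPKM. In each of the 3 genes the fMaSC libraries did not overlap stroma. All 3 fell in the Sox10 sort, with log2 folds of −1.60 for Grb10 (SE 0.31, limma adjusted p = 0.0142), −1.97 for Slc38a4 (SE 0.32, limma adjusted p = 0.00709) and −0.92 for Impact (SE 0.18, limma adjusted p = 0.0152). Without Sox10+EpCAM+ replicate 1, limma gave adjusted p of 0.103, 0.0516 and 0.103 in that order, and without replicate 2, 0.0967 for Grb10 and 0.129 for Impact. Slc38a4 also fell in the CD24 sort, by 1.13 (SE 0.26, limma adjusted p = 0.0465), a call that ended without any 1 of 5 libraries, all but EpCAM-negative stroma and CD24+CD49f+ replicate 2 (0.0786 to 0.229). Over both sorts its fall of 1.47 (SE 0.25, limma adjusted p = 0.00826) was called under each alternative setting. As for Cdkn1c, the setting without EpCAM-negative stroma repeats the CD24 sort comparison. Gnas, which encodes the stimulatory G protein alpha subunit, ranged from 208 FPKM in the Sox10+EpCAM+ fMaSC libraries to 559.8 FPKM in CD24low stroma. It did not pass (log2 fold −1.20 in the Sox10 sort, SE 0.38, limma adjusted p = 0.0647). The antisense genes Nespas and Gm20721 overlap 8.83% and 13.1% of its exonic bases, and reads there cannot be told apart.

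Nnat had the largest rise among the members, in both sorts. This proteolipid gene, known from developing brain and from fat, lies within an intron of Blcap on chromosome 2. Nnat stood at 208 and 189 FPKM in the Sox10+EpCAM+ fMaSC libraries (mean 199 ± 14.0 SD, n = 2), 107 and 75.2 FPKM in CD24+CD49f+ fMaSC (mean 91.2 ± 22.6 SD, n = 2), 13.5 and 17.1 FPKM in CD24low stroma (mean 15.3 ± 2.59 SD, n = 2) and 10.5 FPKM in EpCAM-negative stroma. The groups did not overlap. It rose by 4.12 on the log2 scale in the Sox10 sort (SE 0.30, limma adjusted p = 0.000527), by 2.49 in the CD24 sort (SE 0.25, limma adjusted p = 0.00298) and by 3.14 over both (SE 0.36, limma adjusted p = 0.00165). All 3 calls held under each alternative setting. Zrsr1, a retrogene for a splicing factor within Commd1, ranged from 4.22 to 4.98 FPKM in the Sox10+EpCAM+ fMaSC libraries, 2.31 to 2.83 FPKM in CD24+CD49f+ fMaSC and 1.25 to 1.43 FPKM in stroma. It rose by 1.31 in the Sox10 sort (SE 0.21, limma adjusted p = 0.00649), ending without Sox10+EpCAM+ replicate 1 (0.0569) and under equal library sums (0.258). Commd1, on the other strand, shares 9.17% of the exonic bases of Zrsr1 and ranged from 68.9 to 154 FPKM. Reads from Commd1 over those bases cannot be told apart from those of Zrsr1. Inpp5f, a phosphatase gene of which only a short form is imprinted, ranged from 5.09 to 9.06 FPKM with overlapping groups.

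**Figure D3:**
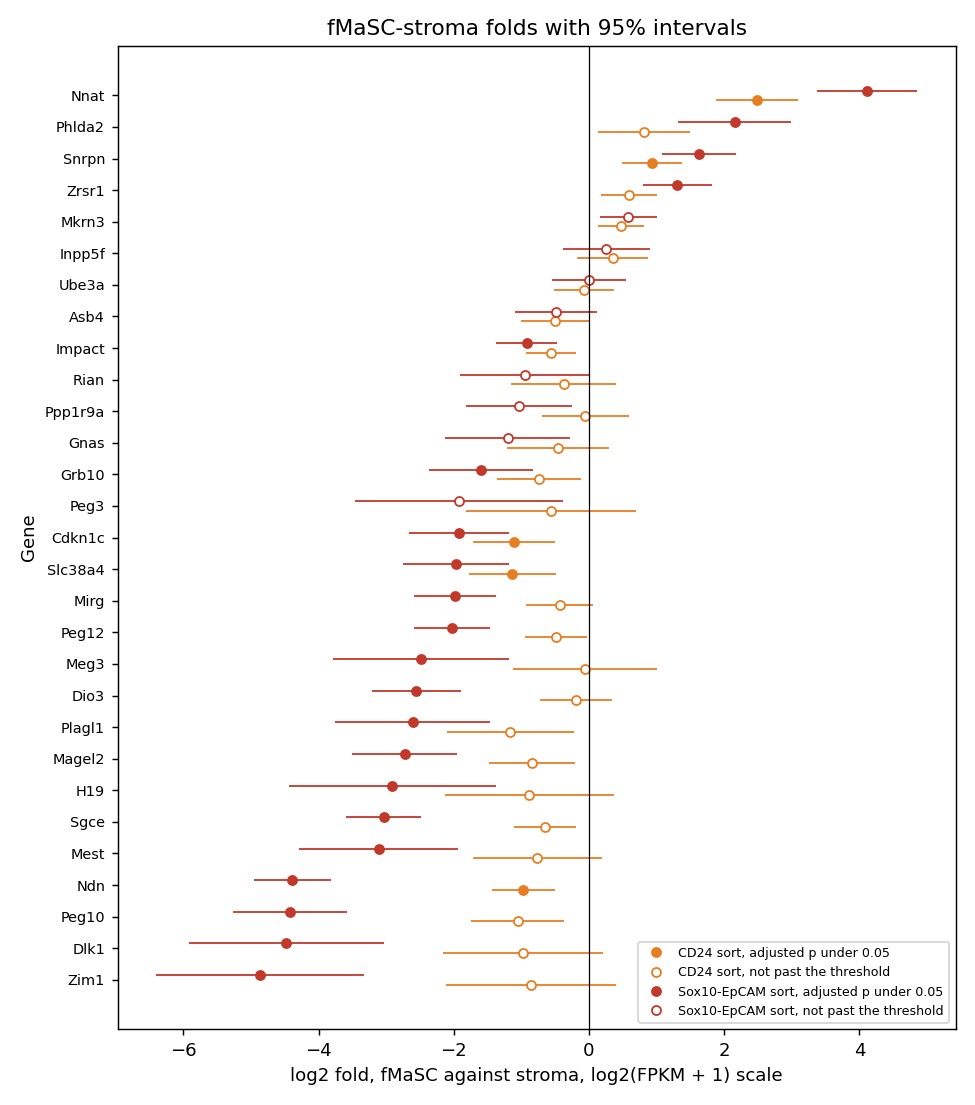
Log2 fold of fMaSC against stroma for the 29 tested imprinted genes in each sort, on the log2(FPKM + 1) scale, with 95% intervals and filled points for limma adjusted p under 0.05. Folds of the Sox10 sort reach from −4.87 (Zim1) to 4.12 (Nnat), and those of the CD24 sort from −1.16 (Plagl1) to 2.49 (Nnat).

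With both sorts pooled and strategy as a term, 10 of the 29 members fell and 5 rose (Nnat, Phlda2, Snrpn, Zrsr1 and Mkrn3) in fMaSC, where 9.5% and 15.6% of all genes were called. The median log2 fold was −1.08, against 0.12 over all genes. The 10 that fell were Cdkn1c, Grb10, Impact, Magel2, Ndn, Peg10, Peg12, Plagl1, Sgce and Slc38a4. Mest, H19, Mirg and Dlk1 lay just outside the threshold (limma adjusted p of 0.0541 to 0.0563). Counted by library, the 4 fMaSC lay below the 3 stroma libraries without overlap for 15 members, which 13.7% of all genes did. For 5 members, the same as the 5 that rose, all fMaSC libraries lay above, which 23.3% of all genes did. Under equal library sums 9 fell and 2 rose, where limma called 962 lower and 777 higher of all 14625 genes. Without EpCAM-negative stroma, the pooled fit holds no stroma of the Sox10 sort and repeats the CD24 sort comparison. The pooled count of 15 was 4 without either Sox10+EpCAM+ library, 5 without EpCAM-negative stroma, 6 without replicate 1 of CD24+CD49f+ fMaSC or of CD24low stroma, and 24 without CD24+CD49f+ replicate 2.

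The fMaSC fractions differed from each other in imprinted genes, while the stroma fractions showed no call. Between Sox10+EpCAM+ and CD24+CD49f+ fMaSC, 12 of the 29 were lower in the former and 1 (Nnat) was higher, where 8.04% and 1.95% of all genes were called. The 12 were Zim1, Dlk1, Ndn, Peg10, Sgce, Mest, Dio3, Plagl1, Magel2, Mirg, Slc38a4 and Peg12. Zim1 had the largest fold, −4.11 (SE 0.51, limma adjusted p = 0.00737), and Dlk1 the next, −3.87 (SE 0.48, limma adjusted p = 0.00734). Leaving out either Sox10+EpCAM+ library left 4 of these calls (Dio3, Ndn, Peg10 and Sgce), and leaving out CD24+CD49f+ replicate 1 gave 20. Markers of other cell types were lower in Sox10+EpCAM+ fMaSC in the same comparison: fibroblast 8 of 8 (median log2 fold −5.42), adipocyte 6 of 6 (−3.89), glia and neural crest 5 of 6 (−2.57), endothelium 4 of 5 (−1.64) and pericyte 3 of 4 (−2.33). Their part in the result was not tested. Both Sox10+EpCAM+ libraries lay below the other 5 for 22 members and above them for 5, which 24.9% and 19.5% of all genes did. Between EpCAM-negative and CD24low stroma, limma called 0 of 29 members, 0 had an unadjusted p under 0.05, and 0.0139% of all genes were called lower and 0.0139% higher. The median log2 fold there was −0.09, and this comparison sets 1 library against 2.

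The fold between fMaSC and stroma itself differed between the sorts for 4 members: Ndn, Peg10, Sgce and Dio3. Their Sox10 sort fold was lower than their CD24 sort fold by more than the spread (limma, difference contrast, adjusted p under 0.05), as for 1.44% of all genes, and 0.0763% differed in the other direction. The difference was −3.42 for Ndn (SE 0.30, limma adjusted p = 0.0154), −3.37 for Peg10 (SE 0.45, 0.0317), −2.39 for Sgce (SE 0.30, 0.0283) and −2.36 for Dio3 (SE 0.35, 0.0389). Peg10, Sgce and Dio3 reached 1 FPKM only in the 5 libraries outside the Sox10+EpCAM+ pair. Their testing therefore rested on the groups where they are high, which favours a low Sox10 sort value. Larger differences with larger errors did not pass for Zim1 (−4.01, SE 0.81, limma adjusted p = 0.0916) and Dlk1 (−3.50, SE 0.76, 0.109). Of the 8 fibroblast markers, 7 had a lower fold in the Sox10 sort by the same contrast, with a median difference of −5.00, and their part in the result was not tested. None of the 4 calls remained without either Sox10+EpCAM+ library or either CD24low library (adjusted p = 0.0866 to 0.237), and 12 were made without CD24+CD49f+ replicate 1.

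Expressed as a share of the stromal mean in FPKM, the 17 members that fell in the Sox10 sort and the stromal markers had different medians, with overlapping ranges. The rule for the 17 used the Sox10 sort values, so these are descriptions. In Sox10+EpCAM+ fMaSC the 17 stood at a median of 11.5% of the EpCAM-negative level (1.11% for Zim1 to 49.7% for Impact), and the 8 fibroblast markers at 1.09% (0.611% to 10.3%). In CD24+CD49f+ fMaSC the 17 stood at 61.0% of the CD24low level (44.2% to 92.6%), and the fibroblast markers at 38.0% (29.7% to 63.8%). Zim1, Magel2 and Peg10 were nearest to the fibroblast markers in the Sox10 sort, at 1.11%, 1.55% and 2.24%. Dio3, Ndn, Dlk1 and Sgce stood at 3.92%, 4.23%, 4.47% and 6.02%. Mest, H19, Plagl1, Meg3 and Cdkn1c kept more, at 11.5%, 13.4%, 15.98%, 17.9% and 26.2%. The rising genes lay far above, with Phlda2 at 967% and Nnat at 1896% in the Sox10 sort and at 268% and 597% in the CD24 sort.

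**Figure D4:**
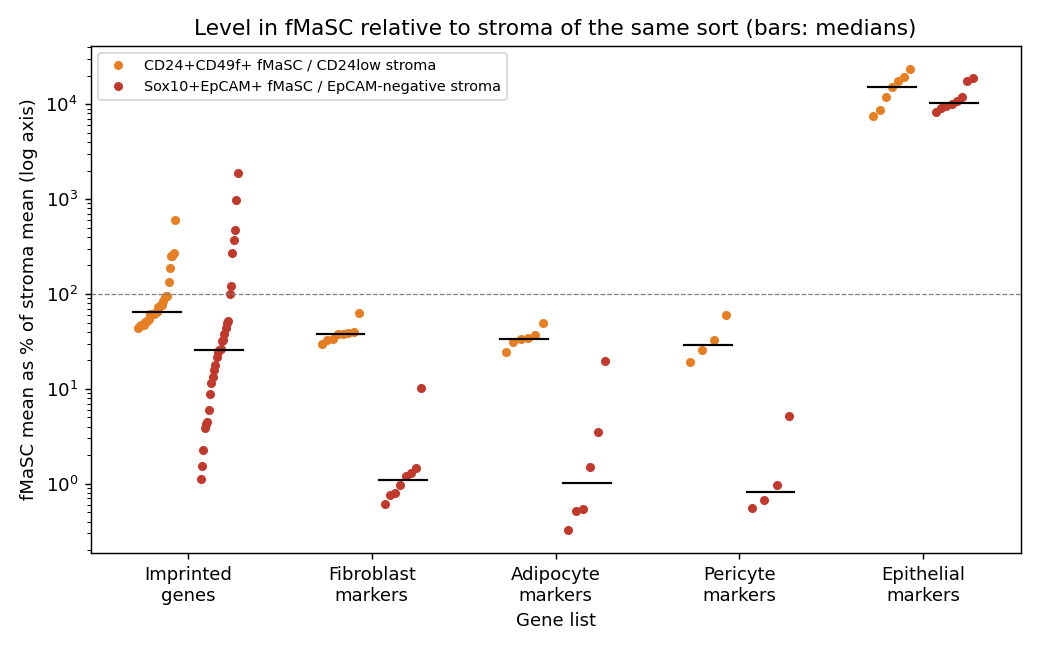
Mean FPKM in fMaSC as a percentage of the stroma mean of the same sort, on a log axis, for the 29 imprinted genes and for markers of 4 cell types, with bars for medians and a dashed line at 100%. A single epithelial marker with a stroma mean under 0.1 FPKM in the CD24 sort is left out. The imprinted genes spread from 1.11% to 1896% in the Sox10 sort, and the medians of the 3 stromal marker lists there lie between 0.817% and 1.09%.

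The members were also counted by the parental copy that background knowledge assigns, beside 13.6% of all genes called lower and 12.5% higher. Of 16 tested paternally expressed members, 11 fell and 3 rose in the Sox10 sort, with a median log2 fold of −2.29. Among 8 tested maternally expressed members, 5 fell and 1 rose, with a median of −1.95. Of 4 tested members whose imprint depends on tissue, 1 fell (Grb10), with a median of −1.12, and Inpp5f, imprinted in only 1 isoform, did not pass. Whether these groups differ was not tested. Opposite directions were seen within both kinds, as with Ndn and Nnat on the paternal side and Cdkn1c and Phlda2 on the maternal side. The 7 members called in no comparison were Asb4, Gnas, Inpp5f, Peg3, Ppp1r9a, Rian and Ube3a.

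A further list of 43 imprinted genes was counted in the same fit. Of these, 38 had a row and 28 were tested, of which 11 fell and 3 rose in the Sox10 sort, and 3 fell and 1 rose in the CD24 sort. The shares of all genes were 13.6% lower and 12.5% higher in the Sox10 sort, and 2.94% and 7.78% in the CD24 sort. After Igf2, the largest changes in the Sox10 sort were falls of Nespas, the antisense RNA of the Gnas locus (−4.32, SE 0.38, limma adjusted p = 0.000899), Klf14 (−3.05), Tfpi2 (−2.86) and Rtl1 (−2.67), the last from the Dlk1-Dio3 cluster. Nespas covers 8.83% of the exonic bases of Gnas on the other strand, so reads over those bases cannot be told apart. Cobl, next to Grb10 on chromosome 11, rose by 2.14 on the log2 scale (SE 0.26, limma adjusted p = 0.00254). Among 12 regulators of imprints, 10 were tested. ZFP57 keeps methylation at imprinted control regions, and Zfp57 stood at 4.63 and 3.11 FPKM in the Sox10+EpCAM+ fMaSC libraries, 8.74 and 15.1 FPKM in CD24+CD49f+ fMaSC, 12.1 and 8.86 FPKM in CD24low stroma and 19.9 FPKM in EpCAM-negative stroma. It fell by 2.12 in the Sox10 sort (SE 0.38, limma adjusted p = 0.0101) and by 1.38 between the fMaSC fractions (SE 0.31, limma adjusted p = 0.0456). Dnmt1, the maintenance methyltransferase, rose by 0.75 over both sorts (SE 0.22, limma adjusted p = 0.0451), from 6.63 to 9.82 FPKM in stroma to 11.1 to 19.03 FPKM in fMaSC. Of the 10 tested regulators, limma called 1 lower in the Sox10 sort and 1 lower between the fMaSC fractions. Over all genes, 13.6% and 8.04% were called lower there. Over both sorts 1 was called higher, as were 15.6% of all genes. The Sox10 sort fall of Zfp57 rests on 1 stroma library, and neither gene was followed under the alternative settings. In the CD24 sort limma called 0 of the 10 regulators, with 2 at an unadjusted p under 0.05. Dppa3 and Dnmt3l, germ line genes, were at 0.356 FPKM or lower and not tested.

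The 6 members too low to test (Usp29, Slc22a18, Kcnq1, Nap1l5, Rasgrf1 and Slc22a3) ranged from 0 to 0.859 FPKM. For a transcript of 2000 bases, 3 fragments correspond to 0.0405 to 0.062 FPKM at the estimated depths, which covers counting error only. Slc22a3, listed at 0 in Sox10+EpCAM+ replicate 1, reached 0.323 FPKM in CD24low stroma.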

How the data were processed

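RNA libraries were made with Illumina TruSeq RNA kits and read as 100-base paired ends in duplicate lanes, with over 25 M reads per sample, per the labels' protocols. Per the submitters' processing notes, STAR, Cufflinks and GRCm38/mm10 were used, and versions and annotation are not given in the sources used here. The authors deposited FPKM, the unit named per the file headers, with a column for each of the 7 libraries, and all were used. Symbols were matched ignoring letter case. Of 38579 genes (8 added sequences left out), 14418 with 1 FPKM or more in at least 2 libraries were tested on log2(FPKM + 1), which understates changes of low genes. Dio3, Zim1, Magel2, Peg12, Peg10 and Sgce reached 1 FPKM only in the 5 libraries outside the Sox10+EpCAM+ pair, and Mkrn3 only in that pair. Limma 3.58.1 in R 4.3.3 fitted 4 group means with an empirical Bayes trend (3 residual degrees of freedom, or 4 in the pooled fit), two-sided, with Benjamini-Hochberg adjustment over all genes tested and a threshold of 0.05. P-values weigh each difference against the spread left between libraries by the fit. In the fit of group means, the single EpCAM-negative library adds nothing to that spread. The fit was tested on simulated data. Depth was estimated from the spacing of low values, of which 65.1% to 75.3% lay within 0.15 of a whole fragment, so depths are approximate and no count test was run. Alternatives were a pseudocount of 0.1, no filter, TPM and quantile scaling, fits on the compared libraries alone, and leaving out each library. The members and all lists (other imprinted genes, imprint regulators and 10 sets of cell type markers) were chosen with earlier results of these data known. Values in every library are given for members called at least once that reached 5 FPKM, and for their cluster neighbours. Promoter sequences came from RefSeq (GRCm38.p6) and overlaps from GENCODE M21. Plots were drawn with matplotlib 3.10.9 and tables built with pandas 2.3.3 and numpy 2.4.6 (Python 3.11.15).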

Additional observations from a re-analysis of the deposited data

Results flagged for a closer look

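The fMaSC-stroma fold differed between the sorts, by a test of the difference itself (limma), for 4 imprinted genes. The Sox10 sort fold minus the CD24 sort fold was −2.36 for Dio3, −3.42 for Ndn, −3.37 for Peg10 and −2.39 for Sgce on the log2 scale. In the Sox10 sort, all 4 stood between 2.24% and 6.02% of the stroma level. In the CD24 sort they stood between 46.8% and 84.0%. Dio3, Peg10 and Sgce passed the filter only through the 5 libraries outside the Sox10+EpCAM+ pair, which favours a low Sox10 sort value. Over all genes, 1.44% differed in this direction and 0.0763% in the other. None of the 4 calls remained without either Sox10+EpCAM+ library or either CD24low library (adjusted p = 0.0866 to 0.237). Fibroblast markers differed the same way (7 of 8 called, median −5.00), and their part in the result was not tested.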

How the results depend on the processing

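No paired analysis was possible because the labels give no replicate numbers that libraries of different groups share, and the numbers used here follow the order of the series. No called member changed direction under any alternative. Calls kept under each alternative in which the member was tested were 1 of 5 in the CD24 sort (Nnat) and 10 of 21 in the Sox10 sort. The 10 were Mirg, Dio3, Zim1, Phlda2, Ndn, Magel2, Peg12, Peg10, Sgce and Nnat. Of these, Dio3, Zim1, Magel2, Peg12, Peg10 and Sgce were filtered out of the fit on the compared libraries alone. Each was under 1 FPKM in both Sox10+EpCAM+ libraries. Kept calls were 3 of 15 over both sorts, 4 of 13 between the fMaSC fractions and 0 of 4 for the difference between sorts. With 1 library left out, the counts ran from 1 to 13 in the CD24 sort, 11 to 25 in the Sox10 sort, 4 to 24 over both, 4 to 20 between the fMaSC fractions, 0 to 0 between the stroma fractions and 0 to 12 for the difference between sorts. In the Sox10 sort the lowest count, 11, came without Sox10+EpCAM+ replicate 1. In the CD24 sort the count was 1 without any 1 of 5 libraries, and 13 without CD24+CD49f+ replicate 2. TPM scaling gave 1 call in the CD24 sort, 8 between the fMaSC fractions and 1 for the difference, and a fit on the compared libraries alone gave 1 in the CD24 sort. Without the filter on low values, 9 were called over both sorts, 6 between the fMaSC fractions and 1 for the difference. For the difference, a pseudocount of 0.1 gave 7 and quantile scaling 2. The number of calls over all genes also changed between settings, so a changed count is not particular to the imprinted genes. Apart from the changed number of libraries or genes tested, the cause was not tested.

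TPM scaling moved the median log2 fold of all genes from 0.09 to −0.60 in the Sox10 sort. Relative to that median, the members' median was −2.02 as deposited and −2.10 under TPM scaling. Calls split into 18 lower and 2 higher there, 9 and 2 over both sorts, and 0 lower and 1 higher in the CD24 sort, where quantile scaling gave 6 lower and 1 higher. Over all 14625 genes tested, TPM scaling called 1588 lower and 569 higher in the Sox10 sort. Each symbol had at most 1 row, so summing rows changed nothing. The EpCAM-negative library cannot be left out of the Sox10 sort, stroma or difference comparisons. Without it the pooled fit repeats the CD24 sort comparison, so that setting does not check the pooled result. Fits on the compared libraries alone do not exist for the pooled and difference comparisons, which use all 7. Where leaving out a library left 1 in its group, that library was assumed to vary like the other groups. The 2 libraries per group and 3 residual degrees of freedom limit what these tests can call.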
